A study of Bos taurus with 3 samples.

Results

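Collagen genes were taken as all genes whose symbol reads COL, a number, A and a number, a rule that uses names and no measured value. It found 36 of the 21861 genes in the count tables, and 30 of them had at least 1 transcript read in 1 or more of the 3 libraries. A further 9 collagen symbols of a class table (COL6A4, COL6A5, COL7A1, COL9A2, COL19A1, COL21A1, COL22A1, COL24A1 and COL25A1) were not matched and are not analysed here.

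Collagens are triple-helical proteins of the extracellular matrix, each built from 3 alpha chains that wind around one another in the endoplasmic reticulum before secretion. Fibrillar collagens such as types I, III, V and XI form the rope-like fibrils that give connective tissue its tensile strength, and types V and XI are known to set fibril size. Network collagens form sheets, among them the type IV collagen of basement membranes, and type VI collagen forms beaded filaments around cells. Collagens named FACIT (fibril-associated collagens with interrupted triple helices) sit on the surface of fibrils, and multiplexins (types XV and XVIII) lie at basement membranes. Fibroblasts and mesenchymal stromal cells are known as main makers of type I and type III collagen.

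The cells were primary cultures of mesenchymal stromal cells (MSCs, plastic-adherent cells of connective tissue) from peripheral blood, bone marrow and adipose tissue of 1 cow, called blood, marrow and adipose tissue below. The animal was a healthy WT (wild-type) Holstein-Frisian cow in its opening lactation, of unstated age. All 3 cultures were untreated, were kept in DMEM (low glucose, 30% FBS) and were taken when colonies could be seen. Single-cell RNA was read by the 10x Genomics 3-prime v3.1 method, which counts unique molecular identifiers (UMIs), one per captured transcript. Each tissue gave 1 library, so no difference between tissues has a replicate check, no test or standard error can be given, and every interval below covers counting error only.

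Of the barcodes, 6088 were kept as cells in the adipose library, 9281 in the marrow library and 3192 in the blood library, with median depths of 14391, 9096 and 24884 UMIs. Between 4 and 10 kept barcodes were shared by any pair of libraries. In the culture as a whole 11 to 13 of 16 stromal markers reached 50 CPM (counts of a gene's UMIs, scaled to one common library total). Clusters, made without any collagen gene, included macrophage-like cells in marrow and blood and mixed clusters in marrow and adipose tissue, in all 39, 979 and 156 cells of adipose tissue, marrow and blood. The other 6049, 8302 and 3036 cells are called the remaining cells below. A gene is said to be apart between a pair of libraries when the ratio of CPM is at least 2 and the higher library has at least 50 CPM. In CPM summed over a culture, fewer cells that make a transcript and less transcript per cell cannot be told apart.

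Collagen transcripts took 0.604% of all UMIs in adipose tissue (exact 95% interval 0.602 to 0.605%), 0.809% in marrow (0.807 to 0.811%) and 1.29% in blood (1.291 to 1.296%). The order of the 3 cultures was therefore adipose tissue, marrow and blood, and no intervals overlapped. In the remaining cells the shares were 0.604%, 0.850% and 1.31%. Few genes carried these shares. The 3 most read collagen genes held 79.0% of collagen UMIs in adipose tissue, 85.1% in marrow and 87.7% in blood. In adipose tissue and blood they were COL1A1, COL1A2 and COL3A1, which encode the chains of type I and type III collagen. In marrow COL5A1 took the place of COL3A1. By class, fibrillar genes held 86.8%, 91.5% and 92.3% of collagen UMIs in the same order. Beaded filament genes followed with 9.01%, 4.38% and 5.11%, then FACIT genes with 2.997%, 1.99% and 1.84%. Network genes held 0.748%, 1.75% and 0.462%, and multiplexins 0.367%, 0.365% and 0.256%. In the remaining cells multiplexins held 0.269%, 0.368% and 0.257%, so the adipose share was lower there. Adipose tissue thus gave the largest share of its collagen UMIs to beaded filaments and FACIT genes, and marrow the largest share to network genes. In CPM, blood was instead highest for beaded filament genes (544, 354 and 661 in the same order) and FACIT genes (181, 161 and 238). Marrow stayed highest for network genes (45.2, 142 and 59.8).

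In each library 9 of the 36 genes reached 50 CPM, and 8 did so in all 3 libraries: COL1A1, COL1A2, COL3A1, COL5A1, COL5A2, COL6A1, COL6A2 and COL12A1. COL14A1 passed in adipose tissue and blood, and COL8A1 in marrow alone, at 49.96 CPM in blood. Since a 3-prime UMI stands for one transcript end, CPM were not divided by transcript length, and levels are compared between genes on that scale. COL1A1 ranked 82nd among all genes in adipose tissue, 35th in marrow and 11th in blood.

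**Figure D1:**
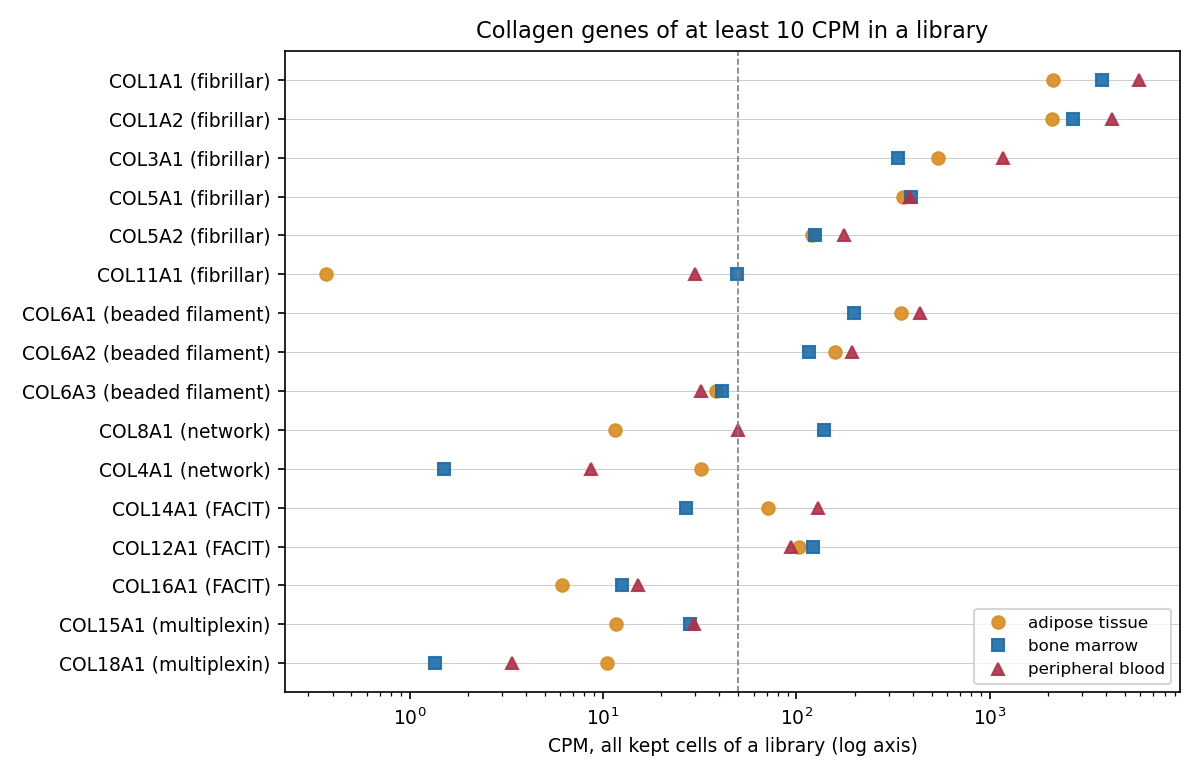
CPM, summed over all kept cells, of the 16 collagen genes that reached 10 CPM in a library, on a log axis. Each point is 1 library, coloured by tissue, and the dashed line marks 50 CPM. The type I chains lie farthest to the right in all 3 libraries, from 2100 to 5902 CPM. COL3A1 follows in adipose tissue and blood, but in marrow it lies at 336 CPM, left of COL5A1 at 389 CPM. The adipose point of COL11A1 lies far to the left, at 0.369 CPM.

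Among fibrillar genes the type I chains differed most in number of transcripts. COL1A1 read 2125 CPM in adipose tissue, 3807 in marrow and 5902 in blood. COL1A2 read 2100, 2691 and 4275 CPM in the same order. Both were thus lowest in adipose tissue and highest in blood. COL3A1, the gene of the type III chain found beside type I in soft connective tissue, took another order, with 540 CPM in adipose tissue, 336 in marrow and 1169 in blood.

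COL5A1 and COL5A2 encode chains of type V collagen, on which type I fibrils are known to start. COL5A1 was nearly level, at 353, 389 and 385 CPM in adipose tissue, marrow and blood. Marrow exceeded blood by 1.01-fold with an interval of 0.995 to 1.02, so these neighbours did not differ beyond counting error. COL5A2 read 120 CPM in adipose tissue, 124 in marrow and 175 in blood.

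COL11A1, best known from cartilage, where its chain enters fibrils of type II collagen, was the fibrillar gene with the widest range. It had 35 UMIs in adipose tissue (0.369 CPM), 4845 in marrow (49.05 CPM) and 2679 in blood (30.0 CPM). Marrow exceeded adipose tissue 133-fold (95.4 to 191) and blood exceeded it 81.4-fold (58.4 to 117), though its CPM were under the level for a gene to count as apart. COL2A1, the type II chain itself, had 0, 5 and 0 UMIs.

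In beaded filament genes, the chains of type VI collagen, adipose tissue lay between the other libraries. COL6A1 read 347 CPM in adipose tissue, 198 in marrow and 436 in blood, and COL6A2 read 159, 115 and 194 CPM. COL6A3 went the other way at a low level, with 38.3, 41.0 and 32.2 CPM. COL6A6 had at most 6 UMIs in a library.

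The network gene COL8A1, whose chain forms hexagonal lattices beneath endothelia such as that of the cornea, was the collagen gene of at least 50 CPM that differed most. It read 11.5 CPM in adipose tissue, 138 in marrow and 49.96 in blood. COL4A1, a chain of basement-membrane collagen, was highest in adipose tissue, at 32.0 CPM against 1.498 in marrow and 8.68 in blood. Its ratio was 21.3 over marrow (18.1 to 25.3) and 3.68 over blood (3.40 to 3.99). In the remaining cells COL4A1 read 27.1, 1.496 and 8.90 CPM, so the order stood without the small mixed cluster of adipose tissue. In cells with few proliferation transcripts its excess in adipose tissue was 12.02-fold over marrow and 1.70-fold over blood, under the 2-fold mark for blood.

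Of the FACIT genes, COL12A1 and COL14A1 encode related proteins that coat type I fibrils. COL12A1 read 103 CPM in adipose tissue, 121 in marrow and 93.2 in blood, a narrow range. COL14A1 read 71.5, 27.0 and 130 CPM, and was lowest in marrow. COL16A1, a minor member of the class, read 6.17, 12.5 and 15.1 CPM and was 2.03-fold (1.83 to 2.24) and 2.45-fold (2.22 to 2.70) higher in marrow and blood than in adipose tissue. In cells with few proliferation transcripts its excess in marrow was 1.80-fold.

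The multiplexins moved in opposite directions. COL15A1 read 11.6 CPM in adipose tissue, 28.2 in marrow and 29.7 in blood, and COL18A1, the gene whose protein releases endostatin, read 10.5, 1.36 and 3.40 CPM. Both genes were read at much higher levels in the 39 mixed cells of adipose tissue described further on, and in the remaining adipose cells COL15A1 read 8.19 CPM and COL18A1 8.07 CPM. Over the remaining cells COL15A1 was 3.64-fold higher in marrow and 3.69-fold higher in blood than in adipose tissue. Without those cells COL18A1 was still highest in adipose tissue, at 5.48 times marrow and 2.32 times blood, but the excess over blood was only 1.40-fold in cells with few proliferation transcripts.

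The other 20 genes were low. COL27A1, COL5A3, COL8A2, COL13A1 and COL4A2 reached between 1 and 10 CPM in their highest library. Another 15 stayed under 1 CPM in every library, among them COL17A1 with 13, 5 and 12 UMIs in adipose tissue, marrow and blood. COL4A3, COL4A5, COL9A1, COL10A1, COL11A2 and COL28A1 had at most 5 UMIs in a library. COL4A4, COL4A6, COL9A3, COL20A1, COL23A1 and COL26A1 had 0 UMIs in all 3 libraries, which allows up to 0.0316 CPM in adipose tissue, 0.0304 in marrow and 0.0336 in blood (3 counts of the total). COL2A1, COL9A1 and COL10A1, which mark cartilage, were thus at or near 0.

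Between marrow and adipose tissue, of 10 collagen genes with at least 50 CPM in either library, COL8A1 was 12.04-fold higher in marrow (11.3 to 12.8) and COL14A1 2.65-fold higher in adipose tissue (2.53 to 2.77). Of 3174 genes at that level, 4.35% were apart toward marrow and 2.55% toward adipose tissue, so 1 of 10 collagen genes in each direction is near the background. The median log2 ratio of marrow over adipose tissue was 0.12 over the 16 collagen genes whose CPM added up to 10 or more over both libraries, and −0.08 over all 8498 genes at that level.

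Between blood and adipose tissue, COL1A1 was 2.78-fold higher in blood (2.76 to 2.79), COL1A2 2.04-fold higher (2.02 to 2.05) and COL3A1 2.16-fold higher (2.14 to 2.19). These are 3 of 9 collagen genes, where 3.83% of 3161 genes were apart toward blood. None of the 9 was apart toward adipose tissue, where 1.2% of the genes were. The median log2 ratio of blood over adipose tissue was 0.70 for collagen genes, with 12 of 16 above 0, and −0.08 for all genes at that level. In cells with few proliferation transcripts the excess of blood was smaller: 2.17-fold for COL1A1, 1.52-fold for COL1A2 and 1.95-fold for COL3A1.

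Between marrow and blood, COL8A1 was 2.77-fold higher in marrow (2.68 to 2.86), 1 of 10 collagen genes against 3.86% of 3131 genes. COL3A1 was 3.48-fold higher in blood (3.44 to 3.52), COL6A1 2.20-fold (2.17 to 2.24) and COL14A1 4.81-fold (4.61 to 5.01), 3 of 10 against 3.9% of genes. The median log2 ratio of marrow over blood was −0.39 for collagen genes and 0.00076 for all genes at that level. The 3 pairs share their libraries, so these ratios are not independent of one another.

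Ratios between chains of one collagen are set here by how each gene's 3-prime end is annotated as well as by its transcripts, a part that was not tested, and are therefore compared between libraries only. A type I collagen trimer holds more α1 than α2 chains. The ratio of COL1A1 to COL1A2 transcripts was 1.01 in adipose tissue (1.01 to 1.02), 1.41 in marrow (1.41 to 1.42) and 1.38 in blood (1.37 to 1.39). The ratio was thus lower in adipose tissue than in the other libraries, with intervals that did not overlap theirs.

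COL3A1 to COL1A1 was 0.254 in adipose tissue, 0.0883 in marrow and 0.198 in blood, so marrow had the least type III relative to type I. COL5A1 to COL5A2 was 2.93, 3.13 and 2.19, and COL5A2 to COL1A1 was 0.0567, 0.0326 and 0.0297. In type VI collagen, COL6A1 to COL6A2 was 2.19, 1.71 and 2.25, and COL6A3 to COL6A2 was 0.242, 0.355 and 0.166. COL11A1 to COL5A1, a pair whose chains can join in mixed V/XI fibrils, was 0.00105 in adipose tissue, 0.126 in marrow and 0.0781 in blood.

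Among the FACIT genes, COL14A1 to COL12A1 was 0.692 in adipose tissue, 0.223 in marrow and 1.39 in blood, so blood had the most COL14A1 relative to COL12A1 and marrow the least. COL12A1 to COL1A1 was 0.0486, 0.0318 and 0.0158. In network collagens, COL4A1 to COL4A2 was 22.3 in adipose tissue (18.8 to 26.7), 12.3 in marrow (6.85 to 24.4, from 12 UMIs of COL4A2) and 31.0 in blood (20.8 to 48.1), and the interval of marrow overlapped both others. COL8A1 to COL8A2 was 41.9, 84.8 and 61.0 in the same order. The marrow value includes the mixed and macrophage-like cells, where COL8A1 read 74.8 CPM and COL8A2 6.42 CPM. In the remaining cells of marrow they read 146 and 1.02 CPM, so the ratio is higher there.

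**Figure D2:**
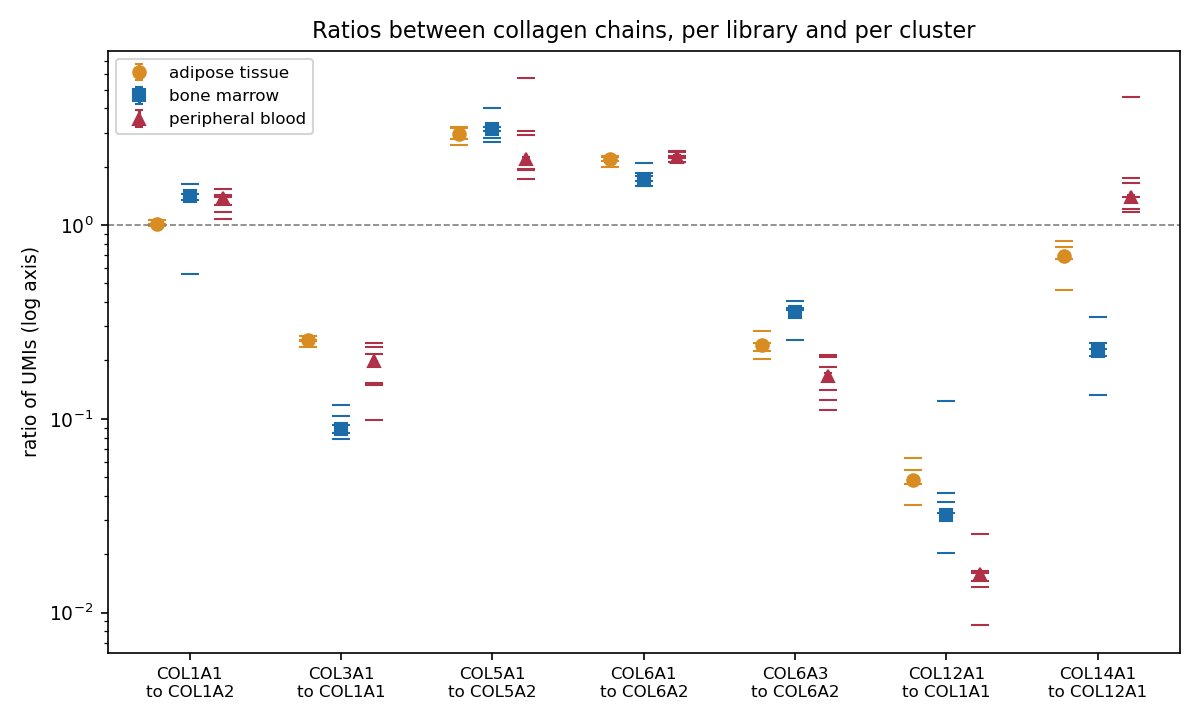
Ratio of UMIs between pairs of collagen chains on a log axis, by library. Points are all kept cells with exact 95% intervals, and small dashes are single clusters of at least 100 cells that were neither mixed nor macrophage-like. COL14A1 to COL12A1 runs from 0.223 in marrow to 1.39 in blood. COL1A1 to COL1A2 of a marrow cluster lies at 0.558, below the others of that library.

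Within each culture the clusters differed in collagen, although no collagen gene was used to form them. Cells of a cluster share a library and are not replicates, so these levels are descriptions. Over clusters of at least 100 cells that were neither mixed nor macrophage-like, total collagen ran from 4114 to 8923 CPM in adipose tissue, from 4387 to 14260 in marrow and from 7307 to 17452 in blood. The highest clusters were led by ASPN in adipose tissue, by SERPINF1, FGF1, CLU and IBSP in marrow, and by ASPN, PRG4, SST and SFRP4 in blood. The lowest cluster of adipose tissue was led by the histone genes H2AC12, H3C3 and H2BC7. How far the cluster range there repeats the difference by proliferation transcripts described further on was not tested. Of the genes with at least 50 CPM, 4 of 9 collagen genes in adipose tissue differed at least 2-fold between their highest and lowest cluster, where 4.89% of all genes did. The count was 3 of 9 in marrow against 7.56%, and 5 of 9 in blood against 11.2%. COL1A1, COL1A2 and COL3A1 were among them in each library, joined by COL5A2 in adipose tissue and by COL5A2 and COL12A1 in blood.

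Marrow cluster 4, 751 cells led by IGFBP5, IGFBP7, IL1RL1, SFRP2 and PRELP, stood apart in type I collagen. COL1A1 read 996 CPM there and 7451 in marrow cluster 3, the cluster led by SERPINF1, a 7.48-fold range, while COL1A2 ranged 2.58-fold, from 1785 to 4599 CPM. The ratio of COL1A1 to COL1A2 was 0.558 in cluster 4 (0.542 to 0.574) and between 1.34 and 1.62 in the other clusters of the library. COL3A1 was also lowest in cluster 4, at 118 CPM against 629 in cluster 3. COL6A1 and COL14A1 instead were highest there, at 300 and 41.3 CPM.

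In blood, cluster 3, 485 cells led by SYCP3, MEOX1 and HOXD11, had the least of the main fibrillar chains. COL3A1 read 277 CPM there and 1866 in blood cluster 0, a 6.73-fold range, COL5A2 62.4 and 266 CPM, and COL1A1 2816 and 7970 CPM. COL5A1 did not follow COL5A2, so their ratio was 5.73 in cluster 3 (5.29 to 6.21) and between 1.73 and 3.07 in the other clusters of blood. COL6A1 was highest in cluster 3, at 562 CPM.

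COL11A1 had its widest range in blood, from 3.70 CPM in cluster 5, led by HAS2, CA4 and S100A8, to 74.4 CPM in cluster 4, led by SULT1B1 and LRRN4CL, a 20.1-fold difference. COL12A1 was also lowest in blood cluster 5, at 29.7 CPM against 127 in cluster 0. In marrow COL11A1 ran from 30.6 CPM in cluster 2 to 104 in cluster 3, while COL8A1 was nearly level over the clusters, from 131 to 176 CPM. The excess of COL8A1 over adipose tissue thus did not rest on 1 cluster of marrow.

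**Figure D3:**
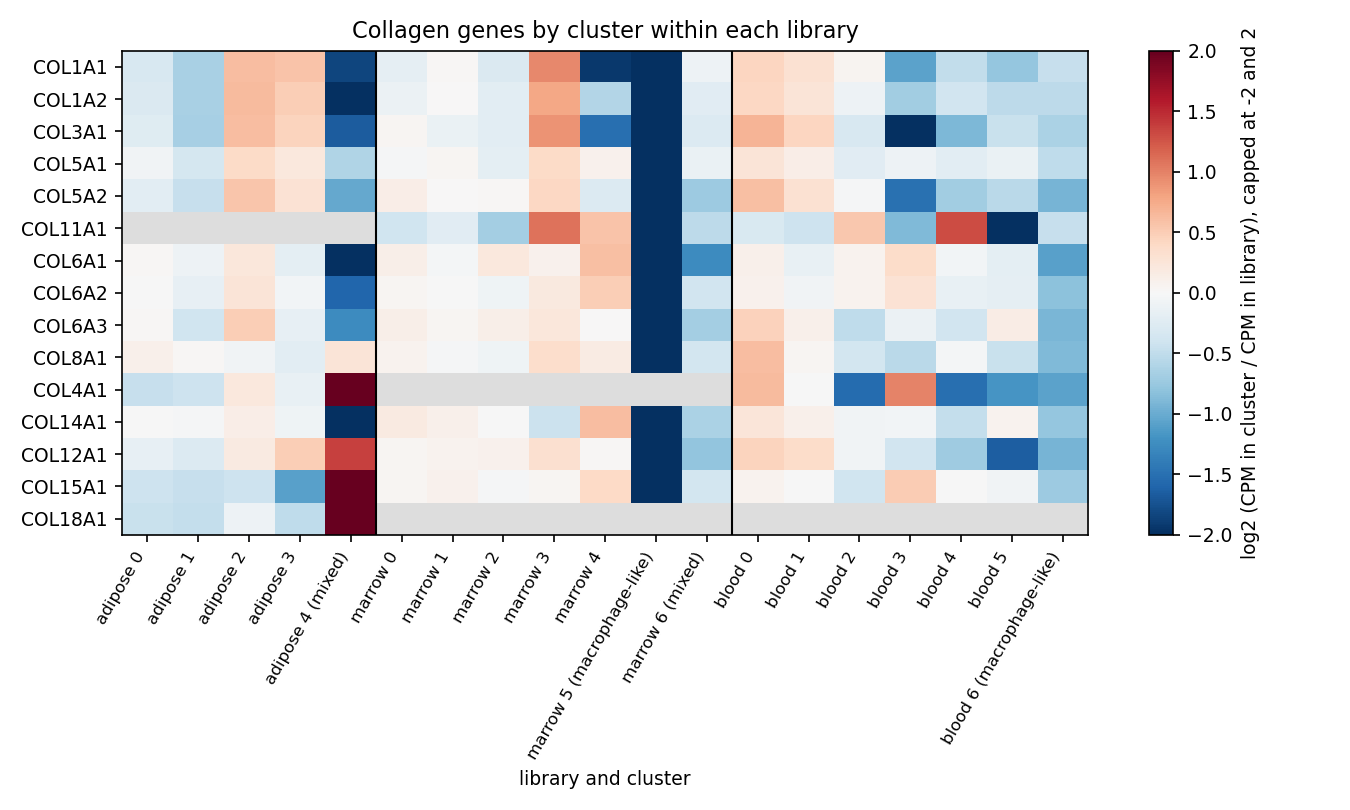
Log2 of the CPM of 15 collagen genes in each cluster over the CPM in its whole library, for clusters of at least 39 cells, with colours limited to ±2. Grey marks genes with no UMI in the cluster or a library level under 5 CPM. The COL1A1, COL1A2 and COL3A1 rows are low in marrow cluster 4 and in blood cluster 3, and the basement-membrane rows are high in adipose cluster 4.

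The small cluster 4 of adipose tissue, 39 cells (0.641% of the library), was called mixed because 6 of 12 endothelial markers were among its 50 leading genes, SELE and SELP with them, while it held stromal transcripts too. In these cells COL4A1 read 1072 CPM (469 UMIs), with at least 1 UMI in 35 of 39 cells, COL15A1 754 CPM (330 UMIs), COL18A1 537 CPM (235 UMIs) and COL4A2 64.0 CPM (28 UMIs). In the remaining adipose cells COL4A1 read 27.1 CPM, COL15A1 8.19 and COL18A1 8.07. Basement-membrane and multiplexin genes were thus high together in this cluster, and COL1A1, at 594 CPM against 2132 in the remaining cells, was low. In the remaining adipose cells the summed level of the 12 endothelial markers was 5.50 CPM, with TIE1 and CLDN5 at 0.

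The macrophage-like cluster of marrow, 515 cells, held 218 CPM of collagen in all, and 93.6 CPM of COL1A1. At a common depth of 3000 UMIs per cell, 324 of its cells had no collagen UMI, and COL1A1 had a UMI in 16.9% (13.8 to 20.4%). COL8A2 was an exception to the low levels, at 12.1 CPM (42 UMIs) against 1.02 in the remaining cells. The macrophage-like cluster of blood, 156 cells, held 8914 CPM of collagen. Of its cells 38 had no collagen UMI, the median was 8 and the upper quartile 32 of 3000 UMIs, and COL1A1 had a UMI in 63.5% (55.4 to 71.0%). Doublets were not called, and their part in this spread was not tested. The 2 macrophage-like clusters also differed in stromal markers: 13 of 16 reached 50 CPM in that of blood and 2 of 16 in that of marrow. The blood cluster thus held stromal transcripts too, and which of its cells made the collagen was not tested. Over whole libraries the 16 macrophage markers summed to 18.8 CPM in adipose tissue, with C1QB, C1QC and ITGAM at 0, to 904 in marrow and to 294 in blood. In the remaining cells the sums were 18.3, 36.6 and 94.4 CPM.

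Free RNA, read from barcodes of 10 to 100 UMIs, held collagen in shares of 0.553% in adipose tissue, 0.619% in marrow and 0.734% in blood. These were under the shares in cells, and the order of the libraries was the same. COL8A1 read 8.60, 90.8 and 25.2 CPM in free RNA, and COL11A1 0.478, 35.4 and 14.3. Some chain ratios differed between free RNA and cells: COL5A1 to COL5A2 was 12.8, 7.30 and 5.49 in free RNA, and COL6A1 to COL6A2 was 0.541, 0.529 and 0.884.

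Across the remaining cells, each thinned to 3000 UMIs so that depth was equal, collagen was read in nearly every cell and its amount varied widely. The median was 15 collagen UMIs in adipose tissue, 22 in marrow and 35.5 in blood. From the 5th to the 95th percentile cells ran from 5 to 39 in adipose tissue, 6 to 54 in marrow and 11 to 79.25 in blood, so the distributions of the cultures overlapped broadly. Only 10, 3 and 0 cells had no collagen UMI. The mean ± SD over cells was 17.9 ± 11.0, 24.7 ± 15.3 and 39.01 ± 21.7 UMIs, a coefficient of variation (CV) of 0.615, 0.621 and 0.557. Counting alone would give a CV of 0.236, 0.201 and 0.160 at these means.

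**Figure D4:**
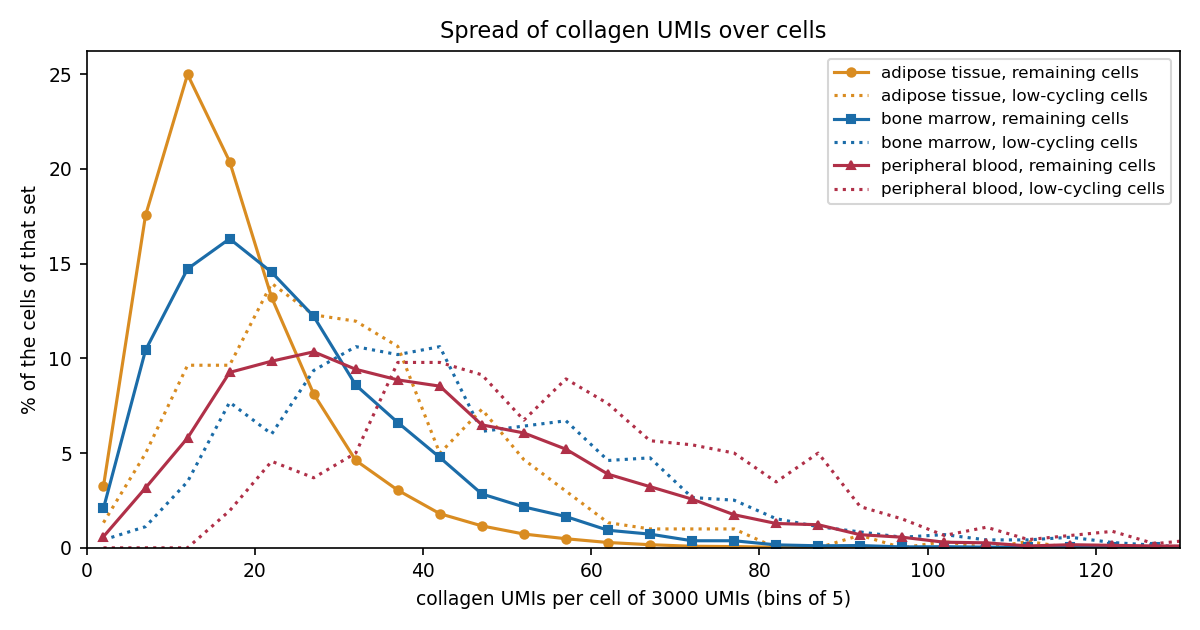
Percent of cells by number of collagen UMIs, in steps of 5, after each cell was thinned to 3000 UMIs. Solid lines are the remaining cells and dotted lines are the low-cycling cells among them, by library. The peak shifts to higher counts from adipose tissue to marrow to blood, and in each library the dotted line lies to the right of the solid one, with medians of 28, 40 and 54 UMIs against 15, 22 and 35.5.

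At 3000 UMIs per cell COL1A1 had a UMI in 97.3% of remaining cells in adipose tissue, 94.9% in marrow and 99.3% in blood, and COL1A2 in 97.1%, 98.7% and 99.5%. COL3A1 had one in 68.1%, 49.2% and 80.9%, and in 3.11% of the macrophage-like cells of marrow at the same depth. COL8A1 was found in 3.49% (3.04 to 3.98%), 32.9% (31.9 to 33.9%) and 13.0% (11.8 to 14.2%), and COL14A1 in 19.6%, 8.38% and 34.0%. COL11A1 was found in 2 of 6049 adipose cells, in 11.6% of marrow cells and in 7.67% of blood cells. Each of COL8A1, COL11A1 and COL14A1 was found in 0.388% of the macrophage-like cells of marrow. Without thinning the shares in adipose tissue, marrow and blood were 14.6%, 66.4% and 58.2% for COL8A1, 0.364%, 28.8% and 25.8% for COL11A1, 63.0%, 24.5% and 93.7% for COL14A1, and 94.2%, 73.9% and 97.2% for COL3A1, at median depths that differed between libraries. The order of libraries for these 4 genes was the same either way.

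The CV beyond counting gives the spread of a gene over cells net of its level. It was 0.665 for COL1A1 in adipose tissue, 0.728 in marrow and 0.604 in blood, higher than in 94.0%, 94.998% and 89.3% of genes with at least 50 CPM. For COL1A2 it was 0.643, 0.581 and 0.516, higher than in 93.3%, 91.4% and 83.7%. The median gene had 0.266, 0.254 and 0.281, and the 95th percentile lay at 0.736, 0.722 and 0.837, so COL1A1 lay just above it in marrow and below it in the other libraries. COL3A1 was above it in all 3 libraries, at 0.842, 1.17 and 0.856, as was COL12A1, at 1.21, 0.755 and 1.41. COL5A1 was less uneven, at 0.464, 0.474 and 0.372.

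Correlations over cells between collagen chains were unlike in size. The correlation r between COL1A1 and COL1A2 over remaining cells was 0.546 in adipose tissue, 0.634 in marrow and 0.754 in blood, and between COL1A1 and COL3A1 it was 0.369, 0.372 and 0.615. In cells with few proliferation transcripts COL1A1 gave 0.706, 0.654 and 0.661 with COL1A2, and 0.385, 0.369 and 0.511 with COL3A1. Blood was thus highest there only with COL3A1. COL5A1 with COL5A2 gave 0.117, 0.110 and 0.129, and COL6A1 with COL6A2 0.152, 0.0925 and 0.131. At these low counts counting noise holds r down for weakly read genes, so the low values do not show that such chains vary apart. COL14A1 and COL8A1 gave r between −0.038 and 0.072 with COL1A1. These are descriptions over 6049, 8302 and 3036 cells that share a library.

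Among genes outside the collagens with at least 50 CPM in every library, the 10 most like COL1A1, COL1A2 and COL3A1 together over remaining cells were SPARC, MMP2, CCN2, SERPINH1, FN1, FBN1, HSPA5, ATF4, DCN and MKNK2. SPARC, a collagen-binding matrix protein, gave r of 0.581 in adipose tissue, 0.479 in marrow and 0.674 in blood, and SERPINH1, the collagen chaperone HSP47, 0.316, 0.270 and 0.357. The median r of 2514 genes was −0.013, −0.017 and −0.029. The gene least like them was PTMA, with r of −0.350, −0.354 and −0.523.

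Collagen was higher in cells with few proliferation transcripts in all 3 libraries. Over remaining cells, r between collagen UMIs and UMIs of 34 proliferation genes was −0.228 in adipose tissue, −0.302 in marrow and −0.322 in blood, and r with the cell's depth before thinning was 0.051, 0.143 and 0.087. Cells with at most 2 such UMIs among 3000 are called low-cycling, and numbered 301 in adipose tissue, 716 in marrow and 460 in blood (4.98%, 8.62% and 15.2% of the remaining cells). Collagen took 1.07%, 1.54% and 1.89% of UMIs in them, which was 1.85, 1.97 and 1.55 times its level in the other remaining cells. The order of the libraries was kept, and the ratio of blood to adipose tissue was smaller than in all cells. The mean number of collagen UMIs per cell was 31.3, 43.8 and 56.7 in low-cycling cells and 17.2, 22.8 and 35.8 in cells with 3 to 20 proliferation UMIs. It was 17.1, 23.4 and 36.2 with 21 or more, close to the cells with 3 to 20. Whether collagen fell in a step or gradually within the range of 3 to 20 was not tested.

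The genes did not share this difference equally. Of genes with at least 50 CPM in the remaining cells, COL1A1 (2.01-fold, 1.98 to 2.04) and COL1A2 (2.05-fold, 2.02 to 2.08) were at least 2-fold higher in the low-cycling cells of adipose tissue, 2 of 9 collagen genes where 1.02% of all genes were. In marrow COL1A1 (2.17-fold), COL3A1 (2.26-fold) and COL11A1 (2.496-fold) were, 3 of 10 against 0.417%. In blood none of 10 was, against 0.314%, with COL8A1 at 1.90-fold, COL3A1 at 1.75-fold and COL1A1 at 1.59-fold. COL11A1, under 50 CPM in blood, was 2.20-fold higher in the low-cycling cells of that library (2.02 to 2.41). COL6A1 was 1.15, 1.15 and 1.16 times as high in the low-cycling cells of adipose tissue, marrow and blood, COL14A1 1.01, 0.796 and 1.02 times, and COL15A1 0.709, 1.02 and 0.829 times. The median gene had a ratio of 0.926, 0.919 and 0.9497.

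**Figure D5:**
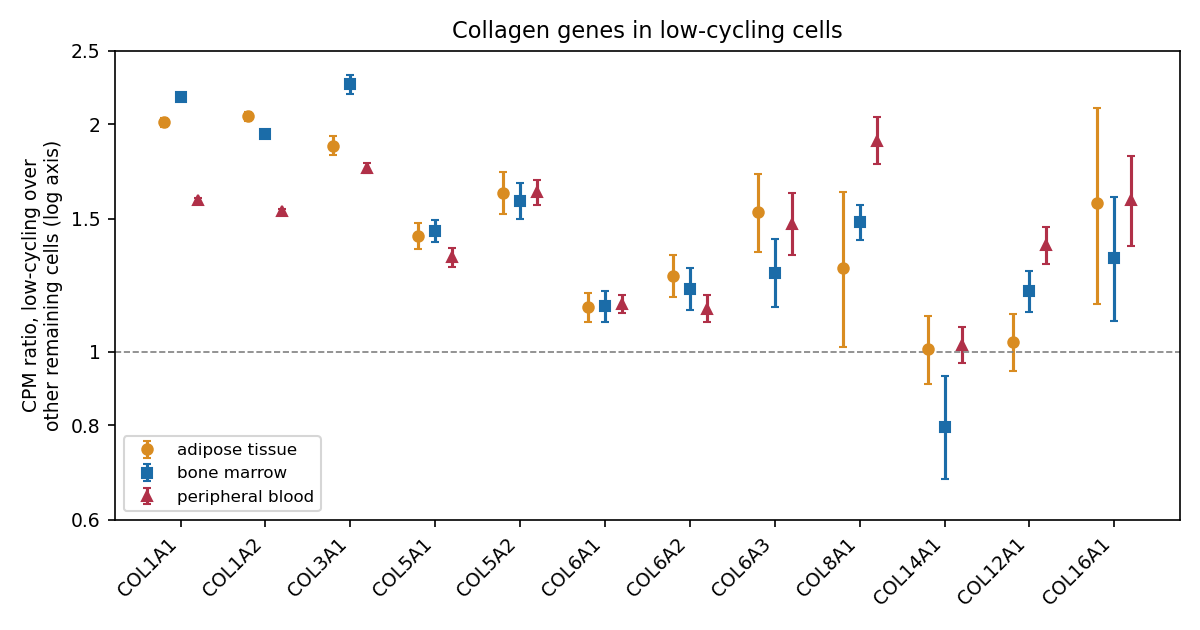
Ratio of CPM in low-cycling cells to CPM in the other remaining cells for 12 collagen genes, on a log axis, with exact 95% intervals, by library. The type I and type III chains lie between 1.53 and 2.26 in all 3 libraries, while COL6A1 lies near 1.15 and COL14A1 near or below 1.

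Of 25 genes for the synthesis and folding of collagen, such as prolyl and lysyl hydroxylases and chaperones, 24 were found and 17 or 18 reached 50 CPM in a pair. None was apart in any pair of libraries, where between 1.2% and 4.35% of all genes were in a given direction, so at this number of genes 0 is near the background. Their median log2 ratio was 0.14 for marrow over adipose tissue, 0.39 for blood over adipose tissue and −0.21 for marrow over blood, set beside −0.08, −0.08 and 0.00076 for all genes. The 5 most read were SPARC at 1567, 1730 and 2834 CPM in adipose tissue, marrow and blood, SERPINH1 at 1208, 1282 and 1582, PPIB at 978, 1174 and 1511, P4HA2 at 435, 528 and 610, and P4HB at 484, 501 and 523. The ratio farthest from 1 among listed genes of at least 10 CPM was 1.85 in 2 of the pairs, for CRTAP in blood over adipose tissue and for CREB3L1 in marrow over adipose tissue, and 1.74 for P3H2 in blood over marrow, all named after their values were seen.

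Of 15 genes that trim or cross-link collagen, LOX, whose enzyme starts the cross-links, read 100.5 CPM in adipose tissue, 99.9 in marrow and 281 in blood. It was 2.80-fold higher in blood than in adipose tissue (2.74 to 2.87) and 2.82-fold higher than in marrow (2.75 to 2.88). LOXL2, of the same family, read 54.2, 70.2 and 162 CPM, and was 2.99-fold higher in blood than in adipose tissue and 2.31-fold higher than in marrow (1.82-fold in low-cycling cells). PCOLCE, the enhancer of C-propeptide cleavage, read 112, 42.0 and 86.0 CPM, and was 2.66-fold lower in marrow than in adipose tissue and 2.05-fold lower than in blood. The related PCOLCE2 read 160, 213 and 108 CPM and LOXL1 167, 111 and 158. No other gene of the list was apart. Of list genes with at least 50 CPM, 1 of 5 was apart toward adipose tissue over marrow, against 2.55% of all genes. Toward blood, 2 of 6 were apart over adipose tissue, against 3.83%, and 3 of 6 over marrow, against 3.9%. The median log2 ratios were −0.01, 0.44 and −0.51 for the 3 pairs in the order above. For all genes they were −0.08, −0.08 and 0.00076.

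Of 18 genes of collagen receptors and breakdown, ITGA1, a subunit of a collagen-binding integrin, read 16.5, 31.2 and 101 CPM in adipose tissue, marrow and blood, 6.11-fold higher in blood than in adipose tissue and 3.24-fold higher than in marrow. MMP2, a gelatinase, read 1138, 630 and 1472 CPM, 2.34-fold higher in blood than in marrow (1.72-fold in low-cycling cells). MMP9, the other gelatinase, read 0.527, 111 and 116 CPM, but 0.530, 4.66 and 8.34 in the remaining cells. Of list genes with at least 50 CPM, 1 of 6 (MMP9) was apart toward marrow over adipose tissue, against 4.35% of all genes. Toward blood over adipose tissue 2 of 7 were apart (ITGA1 and MMP9), against 3.83%. Toward blood over marrow 2 of 7 were (ITGA1 and MMP2), against 3.9%. The most read of the others were ITGB1 at 674, 788 and 715 CPM, CTSK at 678, 350 and 488, MMP14 at 122, 166 and 125, and MRC2 at 64.5, 78.9 and 60.1. Of the interstitial collagenase genes, named after their values were seen, MMP8 and MMP13 had 0 UMIs in all 3 libraries, and MMP1 read at most 0.527 CPM.

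Of 15 genes of proteins that bind collagen fibrils, 9 reached 50 CPM in marrow or adipose tissue, 7 in blood or adipose tissue and 9 in marrow or blood. In marrow over adipose tissue 6 of 9 were apart toward marrow, against 4.35% of all genes: LUM (4.30-fold), FMOD (4.72-fold), OMD (9.92-fold) and BGN (2.91-fold), which are small leucine-rich proteoglycans, with FN1 (3.69-fold) and THBS2 (4.72-fold). TGFBI (3.09-fold) and THBS1 (4.12-fold) were apart toward adipose tissue, against 2.55%. In the remaining cells TGFBI was 6.69-fold higher in adipose tissue, and in low-cycling cells THBS1 was 2.66-fold higher there and THBS2 2.56-fold higher in marrow. In blood over adipose tissue 4 of 7 were apart toward blood, against 3.83%: FMOD (12.6-fold), LUM (3.66-fold), BGN (3.49-fold) and FN1 (3.42-fold). Between marrow and blood, OMD (6.44-fold) and THBS2 (2.81-fold) were higher in marrow, 2 of 9 against 3.86%, and FMOD (2.67-fold), TGFBI (3.88-fold) and THBS1 (2.89-fold) in blood, 3 of 9 against 3.9%. In the remaining cells TGFBI was 7.53-fold higher in blood than in marrow. In low-cycling cells the excess of blood over marrow was 1.88-fold for FMOD and 1.69-fold for THBS1. DCN, the fibril-coating proteoglycan decorin, was nearer level, at 376, 443 and 553 CPM in adipose tissue, marrow and blood. FMOD, fibromodulin, read 25.9, 122 and 325 CPM, so its order of libraries was that of COL1A1. DCN and BGN (151, 440 and 528 CPM) had that order too, so it was not particular to FMOD. The list's median log2 ratios were 1.71, 0.62 and −0.08.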

How the data were processed

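The authors deposited counts (whole numbers of UMIs) for every gene and barcode. The submitters' processing notes name Cell Ranger 6.1.1 and the build ARS-UCD1.2, while the header lines of the deposited files name version 4 of that software. No genome of that build was used, so no coordinates or sequences are given.

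Cells were barcodes of at least 0.1 times the UMI total found at percentile 99 among the 3000 largest, that is 4438.5 (adipose tissue), 4414 (marrow) and 7489 UMIs (blood); 0 cells failed the limits of 500 genes and 20% mitochondrial UMIs. Doublets were not called. Kept cells held 94838893, 98772664 and 89171113 UMIs. Each library was clustered with scanpy 1.11.5 on all but the collagen genes (2000 variable genes, 30 components, 15 neighbours, Leiden resolution 0.5, seed 1). A cluster needed 3 markers of a class among its 50 leading genes to be named. Most stayed unnamed.

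Ratios of summed UMIs carry exact conditional binomial 95% intervals, shares Clopper-Pearson intervals. Thinning was to 3000 UMIs per cell, or 6000 as an alternative. Alternatives were TMM (edgeR 4.0.16), median-of-ratios scaling, other cell sets and other filters. Simulated counts used the real genes and totals with Poisson noise alone, and the changed genes were well above the 50 CPM level. There 200 of 200 genes at 3-fold, 0 of 200 at 1.5-fold and 0 unchanged genes were called in each pair. This checked only that the rule was coded as stated. It cannot show the error between cultures, since no variation between cultures or cells was simulated.

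Collagen genes of at least 50 CPM, or 2-fold apart with 10 CPM, are named with values; of the 4 other lists, the genes apart and the 5 most read. The members, lists and markers were chosen with earlier results of these data known. The stromal markers LUM, DCN, FN1, SPARC, POSTN, LOX and BGN also stand in those lists.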

Additional observations from a re-analysis of the deposited data

How the results depend on the processing

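No paired analysis was possible because each tissue has 1 library. No collagen gene that was apart changed direction under any alternative run. Of those with at least 10 CPM that were not apart, COL6A3 (bone marrow over adipose tissue), COL12A1 (blood over adipose tissue) and COL15A1 (bone marrow over blood) changed direction in low-cycling cells. Below that level, directions that rest on few UMIs also changed, such as COL27A1 in blood over adipose tissue, 1.99-fold higher in blood but 1.43-fold higher in adipose tissue in low-cycling cells. The number of collagen genes apart toward bone marrow over adipose tissue (1) became 2 with median-of-ratios scaling, in the remaining cells, in low-cycling cells and at a doubled UMI threshold for cells, 4 with a 10 CPM filter and 8 with none, since lower filters test more genes. Toward adipose tissue (1) it became 3 at 10 CPM and 7 with no filter. For blood over adipose tissue the 3 became 4, by COL8A1, with both scalings, in the remaining cells, at the doubled threshold and without the 10% of cells with most UMIs. In low-cycling cells it was again 3, with COL8A1 and COL11A1 in place of COL1A2 and COL3A1. It became 7 at 10 CPM and 10 with no filter, and the 0 toward adipose tissue 2 and 4. For bone marrow over blood, the 1 became 2 in low-cycling cells and 4 with no filter, and the 3 toward blood 7 with no filter.

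The median log2 ratio of bone marrow over adipose tissue (0.12) was 0.17 with TMM, 0.19 with median-of-ratios scaling, 0.20 in remaining cells, 0.20 in low-cycling cells, 0.20 at the doubled threshold, 0.16 without the 10% of cells with most UMIs and 0.23 with a lower or no filter. Blood over adipose tissue (0.70) gave 0.76 with both scalings, 0.56 in low-cycling cells and 0.54 with no filter. Bone marrow over blood (−0.39) gave −0.28 in low-cycling cells, −0.17 with a lower filter and −0.11 with none. TMM factors lay between 0.983 and 1.03.

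The collagen share of UMIs depended most on the cell set and the denominator. In adipose tissue (0.604%) it was 1.07% in low-cycling cells, 0.580% without the 10% of cells with most UMIs, 0.590% with equal weight per cell and 0.810% of UMIs outside mitochondrial and ribosomal protein genes. In bone marrow (0.809%) these were 1.54%, 0.782%, 0.768% and 1.09%, with 0.850% in remaining cells and 0.861% at the doubled threshold. In blood (1.29%) they were 1.89%, 1.281%, 1.26% and 1.73%, with 1.31% and 1.302%. Blood stayed highest and adipose tissue lowest under each of these. Depth limits genes under 1 CPM and those with few UMIs, such as COL11A1 in adipose tissue.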
